A study of Mus musculus with 9 samples.

Results

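The genes examined were those of mouse chromosome 16, the chromosome that carries Cd47, in Lewis Lung Carcinoma (LLC) cells and in 2 lines derived from them by Cas9 editing of that gene. A gene was included when its row of the count table lay on chromosome 16 and held at least 10 counts in 3 or more libraries, and the genes were ordered by their start. This gave 448 of the 1420 chromosome 16 rows, in a table of 50813 rows in all. They comprised 377 protein-coding genes, 45 lncRNAs, 22 processed pseudogenes, 3 TEC rows (transcripts whose type awaits evidence) and 1 transcribed unitary pseudogene. Of the members other than Cd47, 316 started before Cd47 and 131 after it, from Zfp263 at -46.06 Mb to A630089N07Rik at +48.18 Mb.

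LLC is a mouse lung carcinoma line, and the cells used here also stably express luciferase. The 9 libraries fall into 3 groups of 3, all grown in vitro: unedited cells (genotype WT), CD47 KO clone E3 and CD47 KO clone E5. Both clones were made by electroporating LLC cells with a ribonucleoprotein of Cas9 and a guide against Cd47, and then expanding single cells. Each clone is 1 line and no clone that kept an intact Cd47 was compared, so loss of Cd47, passage through a single cell and the editing procedure cannot be told apart. The study's methods describe the 3 libraries of a line as biological replicates that were independent of each other, while the labels do not say how they were separated. The p-values measure the spread between replicates of 1 line, not between clones. The mesenchymal markers Vim (4131 to 6833 CPM, counts scaled to library size) and Cdh2 (19.2 to 34.2 CPM) were present in every library, as was Fn1 (556 to 2246 CPM), while Epcam was at 0 and Cdh1, Ptprc, Pecam1, Cdh5 and Kdr did not exceed 0.13 CPM. The level of Vim was 4131 to 4217 CPM in WT, 4848 to 6333 CPM in E3 and 6093 to 6833 CPM in E5. For Fn1 it was 1762 to 2246 CPM in WT, 556 to 1481 CPM in E3 and 915 to 1578 CPM in E5. Both clones thus lay above WT for Vim and below it for Fn1. Cdh2 was at 25.4 to 28.1 CPM in WT, 19.2 to 30.5 CPM in E3 and 28.8 to 34.2 CPM in E5. The epithelial keratin genes differed between the lines too. Krt18 ran from 259 to 275 CPM in WT, 95.05 to 153 CPM in E3 and 517 to 583 CPM in E5. Krt8 ran from 183 to 199.7 CPM in WT, 32.3 to 45.3 CPM in E3 and 349.6 to 383 CPM in E5. Of the myeloid genes, Cd68 was at 2.30 to 3.45 CPM and Lyz2 at no more than 0.444 CPM. The part of cell state in the results on chromosome 16 was not tested.

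CD47 is a cell surface protein with an extracellular immunoglobulin domain. It binds SIRPα on macrophages and restrains phagocytosis, and it also binds thrombospondin-1. A Cas9 cut is usually repaired with a short insertion or deletion, but large deletions, rearrangements and loss of the chromosome arm beyond the cut are known outcomes, and a clone can also differ from its parent in the copy number of any chromosome. A change in copy number moves the transcripts of neighbouring genes together, whereas an edit restricted to the target does not. Mouse chromosomes have their centromere at one end, and the numbering of chromosome 16 starts there. The comparison therefore asked whether the genes near Cd47, or any stretch of the chromosome, stood at another level than WT as a block.

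The guide given in the study's methods is shown because its position fixes the point from which the distances matter. It had 1 perfect match with an NGG PAM in GRCm39, at chr16:49688453-49688472 on the plus strand, in exon 2 of Cd47 (chr16:49688128-49688475), the exon that encodes the immunoglobulin domain. The PAM is in capitals in the first line. In the second line, which covers chr16:49688393-49688535, the guide match and PAM are in capitals.
Cd47 guide and PAM: tatagagctgaaaaaccgcaCGG
Cd47 target with flanks: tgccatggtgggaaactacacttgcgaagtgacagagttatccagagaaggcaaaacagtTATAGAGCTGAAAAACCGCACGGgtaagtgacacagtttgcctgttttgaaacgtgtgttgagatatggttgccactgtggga
Cas9 cuts 3 bases before the PAM, here between bases 49688469 and 49688470, which is 67573 bases after the start of Cd47. The cut lies 6 bases before the end of exon 2, whose intron opens with gtaagt, so both the coding sequence and the splice donor lie within a few bases of it. The count table holds 1 count per gene and library, and neither the lesion nor the splicing of exon 2 can be read from it.

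Searching both strands of GRCm39 for NGG sites with up to 4 mismatches to the guide found none with 1 or 2 mismatches. With 3 mismatches there were 8 sites, 0 of them on chromosome 16, and with 4 mismatches there were 95, of which 4 were on chromosome 16. The 4 are shown because they are the closest matches to the guide on this chromosome; capitals mark the mismatched bases and the PAM, and substitutions are numbered from 1 at the 5′ end of the guide.
Intergenic, chr16:16555550-16555569, plus strand (T1A C8A G10T C17T): AatagagAtTaaaaacTgcaTGG
Intron of App, chr16:84929010-84929029, minus strand (G5C G18A C19T A20C): tataCagctgaaaaaccATCAGG
Intron of Tiam1 and of Gm61612, chr16:89796441-89796460, plus strand (A4G G5A A14G C17A): tatGAagctgaaaGacAgcaAGG
Intron of Itsn1 and of a readthrough gene that also carries the name Atp5po, chr16:91658361-91658380, plus strand (T3C A11G A12G C17T): taCagagctgGGaaacTgcaGGG
A match of letters is not evidence of cutting, and no reads across these sites were analysed.

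Depth was similar throughout, at 47574047 to 49621282 counts in WT, 44257404 to 48672040 in E3 and 47378308 to 55095219 in E5. Fold changes come from edgeR's quasi-likelihood test on all 14593 genes that passed its filter on low counts, with all 9 libraries in 1 fit and Benjamini-Hochberg adjustment over all of them. The false discovery rate (FDR) threshold was 0.05, and a differentially expressed gene (DEG) also had an absolute log2 fold change above 1. Of the 448 members 443 were tested. The other 5 (Popdc2, Gap43, Tagln3, A930006K02Rik and Igsf5) passed the counting rule but not the filter.

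One library stood apart. The median log2 ratio of chromosome 16 genes to the WT mean was -0.090 and -0.077 in E3 replicates 1 and 2 but -0.219 in E3 replicate 3. In that library the ratio depended on how much of the genome a gene spans: it was 0.155 over the 121 members with the shortest spans, -0.257 over the middle 121 and -0.656 over the 122 with the longest. The same dependence was present on the other chromosomes (0.295, -0.033 and -0.394). E3 replicates 1 and 2 gave -0.034 and -0.012 over the longest spans of chromosome 16, and the 3 E5 libraries 0.272 to 0.299. What sets this library apart was not tested, and the chromosome medians, block counts, called genes and gene lists are also given without it.

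**Figure D1:**
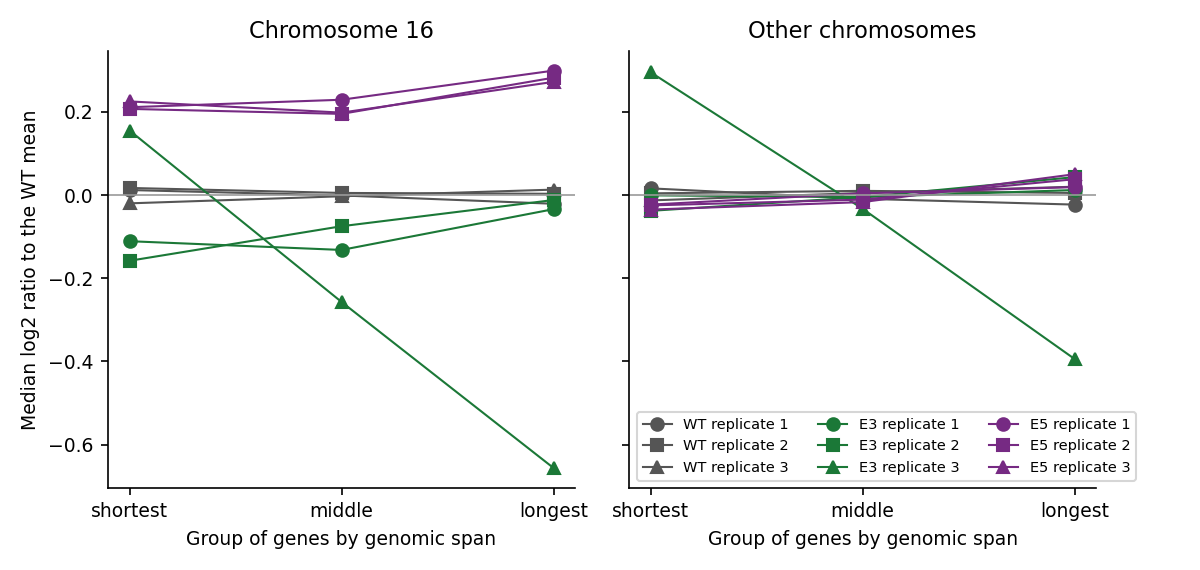
Median log2 ratio to the WT mean (log2 of CPM + 0.5) of genes with a mean of at least 1 CPM, in 3 groups of equal size by genomic span, for each of the 9 libraries, on chromosome 16 (left) and on the other chromosomes (right). E3 replicate 3 falls from 0.155 to -0.656 with span on chromosome 16 and from 0.295 to -0.394 elsewhere, whereas on chromosome 16 the 3 E5 libraries stay above 0 in every group of genes.

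Cd47 was lower in both clones. Its level was 186.8, 179.1 and 181.6 CPM in WT, 47.4, 36.7 and 49.6 CPM in E3 and 15.5, 18.6 and 18.1 CPM in E5, and the 3 lines did not overlap. The mean fell to 24.4% of WT in E3 (log2 fold change -2.03, SE 0.128, FDR = 4.90e-06) and to 9.53% in E5 (-3.39, SE 0.136, FDR = 1.07e-07). E5 was also below E3, by 1.36 on the log2 scale (FDR = 2.76e-05). Transcripts were thus still counted in both clones, and E3 kept more of them.

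The genes flanking Cd47 did not share this fall. Ift57, an intraflagellar transport gene that ends before Cd47 starts, was the nearest expressed neighbour at -0.10 Mb. Its level was 42.3, 42.7 and 41.1 CPM in WT, 42.3, 34.8 and 48.5 CPM in E3 and 46.5, 53.2 and 53.3 CPM in E5. WT lies inside the range of E3 and below that of E5, and neither difference passed the test (FDR = 0.981 and 0.138). Bbx, which encodes an HMG-box protein and starts 0.39 Mb after Cd47, read 169.3, 173.5 and 183.9 CPM in WT. It read 170.7, 212.4 and 88.0 CPM in E3, where replicate 3 is by far the lowest, and 208.4, 214.0 and 235.8 CPM in E5, all above WT. Its fold changes did not pass the test either (FDR = 0.662 and 0.402).

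Further out on the centromere side, Dzip3 (a RING-type ubiquitin ligase, -0.88 Mb) and Cip2a (an inhibitor of protein phosphatase 2A, -0.81 Mb) were at 143% and 136% of WT in E5 on the mean. Their E5 libraries (82.5 to 92.6 CPM and 103.1 to 135.4 CPM) all lay above the WT libraries (59.7 to 62.1 CPM and 82.4 to 88.5 CPM), with FDR = 0.086 and 0.057. In E3 they ran from 39.8 to 73.7 CPM and from 84.5 to 123.4 CPM and overlapped WT. Nectin3, a cell adhesion molecule at -3.41 Mb, was at 97.9% of WT in E3 and 114% in E5 and passed in neither (FDR = 0.860 and 0.244). On the other side, the lncRNA Dubr (+0.91 Mb) was at 76.6% in E3 and 117% in E5, again without passing.

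A single gene among the close expressed neighbours changed in 1 clone. The lncRNA G730013B05Rik, 0.73 Mb after Cd47, had 47.7, 43.3 and 42.6 CPM in WT and 24.6, 22.1 and 23.5 CPM in E3, well separated, against 38.2, 42.3 and 51.8 CPM in E5, which span WT. It fell by 0.93 on the log2 scale in E3 (SE 0.121, FDR = 3.63e-04), including a fall in E3 replicate 3 of the same size as in the other replicates, and it differed between the clones (FDR = 3.09e-04). The other 5 nearest members were at low level. Gm7204, 4930542D17Rik, Gm6767 and Gm4633, an antisense lncRNA inside the span of Cd47 that ran from 0.19 to 0.40 CPM over all libraries, passed no comparison with WT. Whether counting used strand is not given in the sources used here, so reads of Gm4633 and Cd47 cannot be told apart in their shared interval.

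The exception at low level was Dppa4, a nuclear protein of pluripotent cells at -1.52 Mb. It had 0.56, 0.48 and 0.32 CPM in WT, 0.04, 0.06 and 0.11 CPM in E3 and no count in the 3 E5 libraries. E5 was at least 22.3-fold below WT when 3 counts over the group are allowed (66 counts in WT against 0, counting error only). In E3 its mean was 15.7% of WT.

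**Figure D2:**
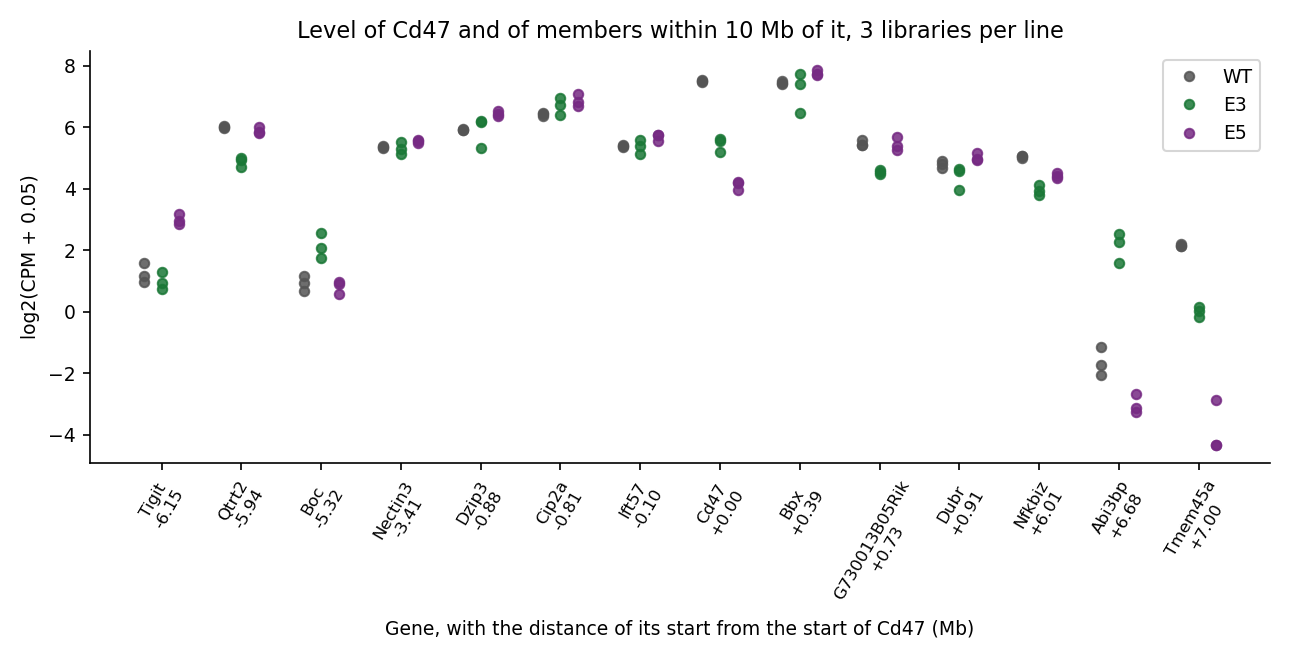
log2(CPM + 0.05) of Cd47 and of 13 members within 10 Mb of it, in order of their distance from Cd47 in Mb (under each name), with 1 point per library and 3 libraries per line. Cd47 falls in steps from WT to E3 to E5, whereas Ift57 and Bbx, its expressed neighbours, stay within about 1 log2 unit of WT.

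Within 1 Mb of Cd47 the 6 members with a mean of at least 1 CPM other than Cd47 had a median log2 fold change of -0.08 in E3 and 0.30 in E5. In E3 this rests on 1 library, since the 3 libraries read -0.015, 0.041 and -0.714, the last being replicate 3. Within 5 Mb there were 16, at -0.10 and 0.21. In E3 3 of these 16 fell (Atg3, an autophagy conjugating enzyme, by 0.37, the lipid-processing hydrolase gene Abhd10 by 0.38, and G730013B05Rik), beside 14.7% of all genes, and 0 rose. Over all genes 15.7% rose in E3. In E5 0 of the 16 passed in either direction, beside 8.96% of all genes that rose and 11.7% that fell. With 16 genes these counts are too small to show a departure from those shares. Away from Cd47, the 312 such members more than 10 Mb off had medians of -0.10 and 0.25. Taken over both sides together, the genes around the cut thus had medians close to those of the rest of the chromosome in both clones.

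The medians changed little with distance. In E5 they were 0.23 within 10 Mb (52 genes), 0.25 from 10 to 20 Mb (72), 0.18 from 20 to 30 Mb (54), 0.27 from 30 to 40 Mb (100) and 0.26 beyond 40 Mb (86). In E3 the same groups gave -0.18, -0.10, -0.10, -0.05 and -0.16. The 259 genes before Cd47 and the 105 after it were alike in E5 (0.25 and 0.23), and in E3 they were at -0.10 and -0.16. Over these whole sides no step at Cd47 is visible in either clone. Close to Cd47 the sides were less alike. The 10 members in the 5 Mb before it had medians of -0.016 in E3 and 0.283 in E5. The 6 members in the 5 Mb after it had medians of -0.271 and 0.082. Whether a local step lies at Cd47 cannot be told from so few genes.

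**Figure D3:**
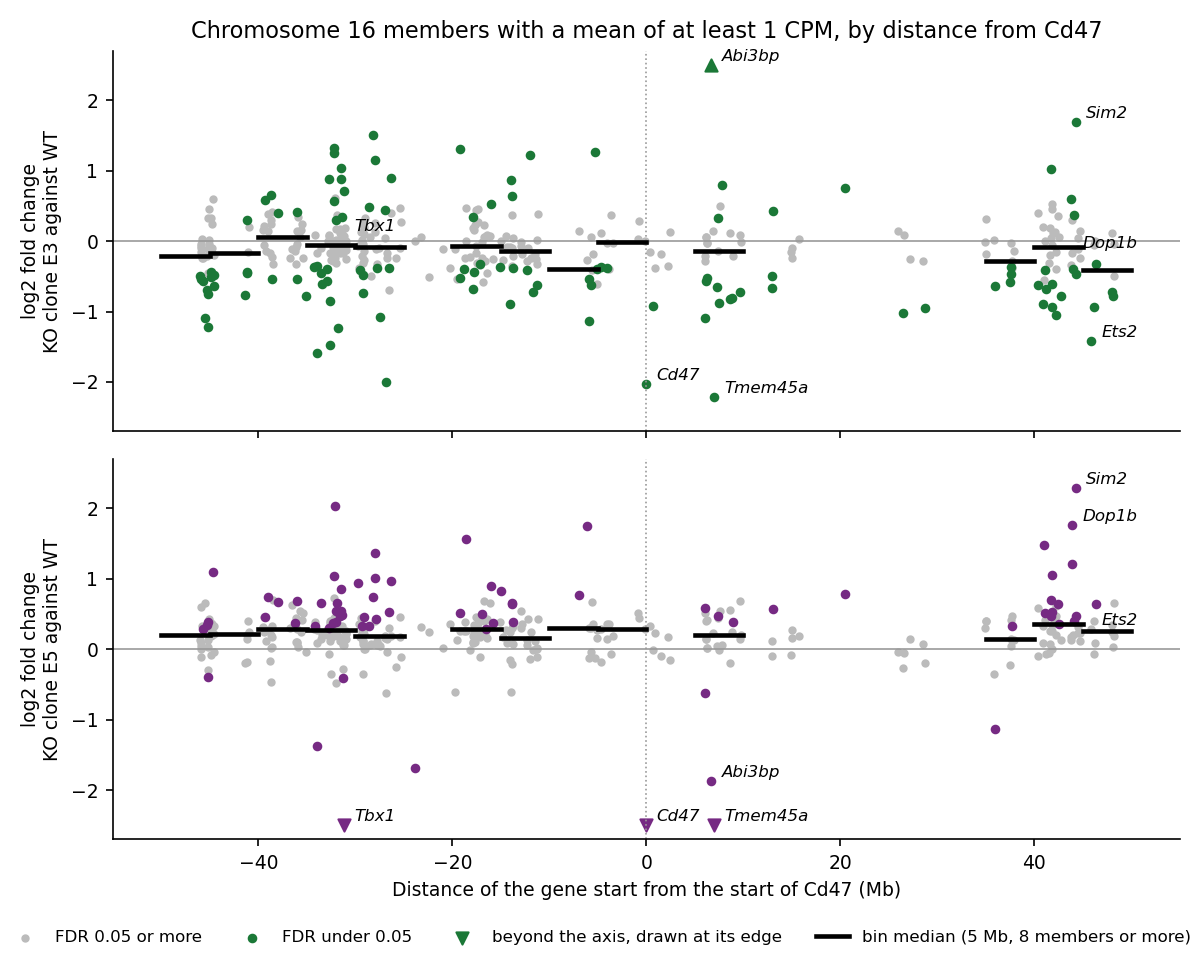
log2 fold change against WT of the 365 members with a mean of at least 1 CPM (y axis, E3 above and E5 below) by distance of the gene start from the start of Cd47 (x axis, Mb). Coloured points have FDR under 0.05, triangles lie beyond the axis, and black bars are medians of 5 Mb bins with at least 8 members; the E5 bars all lie above 0 on both sides of Cd47, and the E3 bars scatter around and below it.

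Over the whole chromosome, E5 stood above WT and E3 slightly below it. The median over 364 members with a mean of at least 1 CPM, Cd47 left out, was 0.247 in E5, a ratio of 1.19, and 305 of them (83.8%) had a fold change above 0. The 11323 such genes on the other 18 autosomes and X had a median of 0.002. In E3 the median was -0.113, a ratio of 0.925, with 135 members (37.1%) above 0, beside a median of -0.004 elsewhere. The values within the chromosome spread more in E3, with quartiles at -0.38 and 0.13, than in E5, with quartiles at 0.09 and 0.40.

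Chromosome 16 was not alone in its level. Ordered by their medians, it was rank 2 of 20 in E5, next to chromosome 13 at 0.251 and chromosome X at 0.245, with chromosome 12 at 0.195 and the lowest chromosome at -0.207. In E3 it was rank 18 of 20, with the others between -0.255 and 0.177. Between the clones it was rank 1 of 20: its median for E5 against E3 was 0.382, a ratio of 1.30, and the other chromosomes lay between -0.195 and 0.306. Without E3 replicate 3, an alternative chosen after the data were seen, that median was 0.376, again rank 1, with the others from -0.186 to 0.306. The 3 E5 libraries read 0.237, 0.226 and 0.233 over chromosome 16, the 3 WT libraries -0.007, 0.009 and -0.001, and the 2 lines are far apart beside the spread between libraries.

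**Figure D4:**
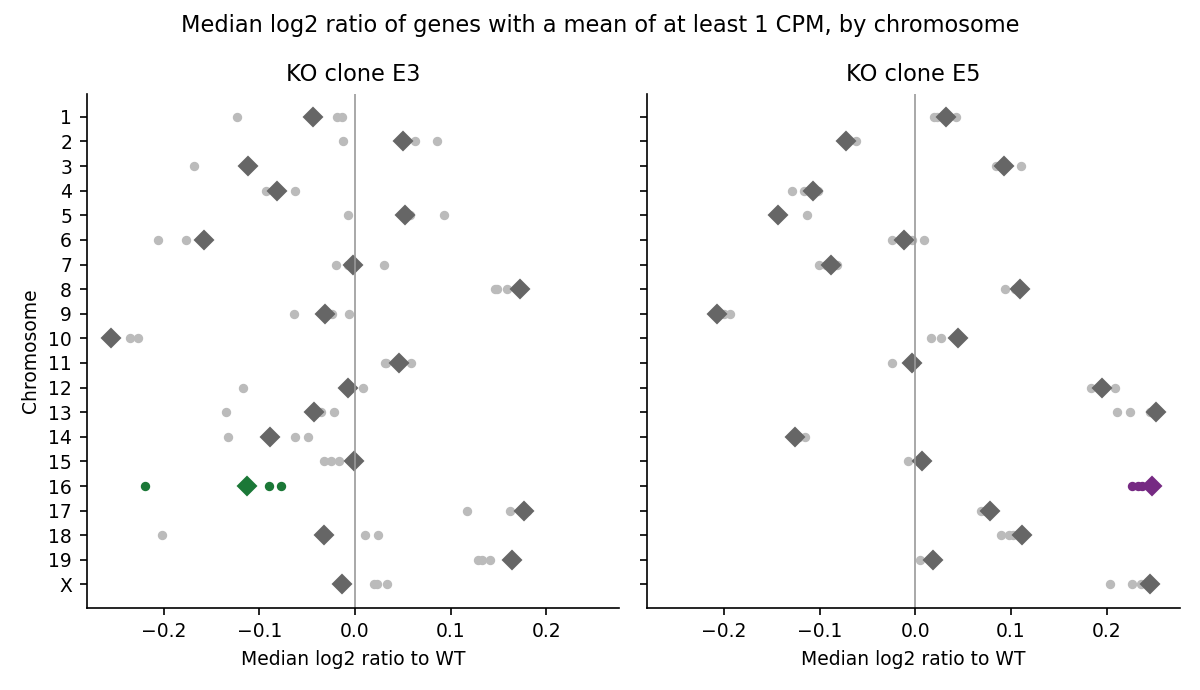
Median log2 ratio to WT of genes with a mean of at least 1 CPM on each chromosome (rows), for E3 (left) and E5 (right). Diamonds are medians of the fitted fold changes, small points the medians of the 3 libraries, and chromosome 16 is coloured; in E5 it lies at 0.247 beside chromosomes 13 and X, and in E3 at -0.113 with replicate 3 at -0.219.

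Each comparison was then read by called genes. In E5 72 of the 443 members tested rose (16.3%) and 18 fell (4.06%), while over all 14593 genes the shares were 8.96% and 11.7%. In E3 51 rose (11.5%) and 93 fell (21%), beside 15.7% and 14.7% over all genes. E5 was above E3 at 172 members (38.8%) and below it at 29 (6.55%), beside 14.7% and 17.2%. The members therefore leaned up in E5 and down in E3 relative to the table as a whole, and most of all between the clones. The 2 comparisons with WT share the WT libraries.

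DEGs, with their larger changes, were about as frequent as in the whole table. There were 46 among the members in E3 (10.4%, against 9.82% of all genes), 34 in E5 (7.67%, against 8.21%) and 43 between E5 and E3 (9.71%, against 11%). Of the members 7 reach 10 counts in the libraries of 1 line only, and a member of that kind had to differ, so 6 of the 46 DEGs of E3 and 4 of the 34 of E5 follow from the counting rule. These DEG counts take both directions together, so whether the DEGs leaned up in E5 as well was not tested.

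The number of small differences called depended on E3 replicate 3, which enters the shared estimate of the spread. Without it 216 of 446 members rose in E5 (48.4%, against 20.8% of all genes) and 28 fell (6.28%, against 21.2%). Likewise 79 rose in E3 (17.7%, against 21.8%) and 129 fell (28.9%, against 21.5%). Leaving out any WT or E5 library instead gave between 27 members that rose in E5 (without WT replicate 2, 6.07%, against 4.52% of all genes) and 46 (without E5 replicate 3, 10.3%, against 6.84%). Fitting E5 and WT alone gave 229 (53.9%, against 23.5%). For E3 the number that rose was 33 without WT replicate 1 (7.42%, against 10.7%) and 32 without WT replicate 2 (7.19%, against 9.57%). Without E3 replicate 3, E5 was above E3 at 241 members (54%, against 22.4%) and below it at 32 (7.17%, against 21.7%). A count that uses no estimate of the spread pointed the same way: all 3 E5 libraries lay above all 3 WT libraries at 256 of 443 members (57.8%, against 27% of all genes) and below them at 35 (7.9%, against 28.4%). For E3 these were 75 members above (16.9%, against 22.4%) and 132 below (29.8%, against 23%).

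To ask whether a stretch moved as a block, members were placed in 5 Mb bins counted outward from the start of Cd47. A bin was called a block when it held at least 8 members with a mean of at least 1 CPM, its median lay at least 0.25 log2 units from that of the other chromosomes, and at least 75% of its members were on that side. Of the 20 bins with any member 13 held enough, with 10 to 57 members each and 338 in all. In E5 6 of the 13 were blocks, all higher (46.2%), where 7.33% of 409 bins of the other chromosomes were higher blocks and 7.58% lower ones. In E3 2 were blocks, both lower (15.4%), where 2.2% of other bins were higher and 4.89% lower.

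The E5 blocks were spread along the chromosome. They were the bins from -40 to -35 Mb (median 0.28, 28 of 31 members on that side), -35 to -30 Mb (0.27, 50 of 57), -20 to -15 Mb (0.29, 34 of 37), -5 to 0 Mb (0.28, 8 of 10), 40 to 45 Mb (0.35, 35 of 38) and 45 to 50 Mb (0.26, 9 of 10). Of the other 7 bins, that from -10 to -5 Mb reached the shift (0.291) but had 72.7% of its 11 members on that side. All 13 medians lay above that of the other chromosomes, by 0.146 to 0.348. With a threshold of 0.4 no bin of E5 was a block. The 5 Mb just after Cd47 held 6 such members, too few for the block rule.

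Well-expressed genes gave values of this size both inside the E5 blocks and in the bin from 35 to 40 Mb, which was no block of E5 (8 of 11 members on the higher side, shift 0.146). Cct8, a subunit of the cytosolic chaperonin in that bin at +37.66 Mb, rose from 580.2, 615.7 and 612.6 CPM in WT to 795.2, 767.8 and 713.6 CPM in E5 (log2 fold change 0.33, SE 0.099, FDR = 0.038). Mcm4, a subunit of the replicative helicase in the E5 block at -34.18 Mb, rose from 312.1, 319.2 and 330.8 CPM to 436.7, 392.5 and 374.8 CPM (0.32, SE 0.102, FDR = 0.047). The calls of both were lost in alternative fits, of Cct8 in 8 of 16 and of Mcm4 in 11 of 16. Both stood about 25% above WT with all libraries apart.

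Others of the same size did not pass. Son, a splicing cofactor at +41.82 Mb, read 335.2, 341.2 and 335.7 CPM in WT and 447.4, 403.5 and 437.6 CPM in E5 (0.35, FDR = 0.155). Gabpa, an ETS family transcription factor in the bin from 35 to 40 Mb, read 112.0, 118.0 and 118.8 CPM against 153.2, 153.9 and 153.3 CPM (0.40, FDR = 0.086). Their E5 libraries do not overlap WT, while their E3 libraries do, with replicate 3 the lowest in both. Abcc1, an efflux transporter, Gspt1, a translation termination factor, Slc5a3, a myo-inositol transporter, and Phldb2, all in E5 blocks, and Ltn1, a ubiquitin ligase of stalled ribosomes in the bin from 35 to 40 Mb, likewise had E5 means at 125% to 152% of WT with FDR from 0.067 to 0.278.

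Not every abundant gene of a block moved. Hmgn1, a nucleosome-binding protein at +46.30 Mb, was at 268.2, 279.6 and 274.1 CPM in WT and at 308.2, 291.3 and 278.1 CPM in E5, 107% of WT on the mean (FDR = 0.673). Brwd1, a bromodomain protein at +46.17 Mb, was at 94.99% of WT (FDR = 0.853), and Atp13a3, a polyamine transporter at -19.49 Mb, at 109% (FDR = 0.741). Tnk2, a tyrosine kinase, was at 113%, Ranbp1, a regulator of nuclear transport, at 112% and Rsl1d1, a ribosome biogenesis factor, at 112%, and none passed in E5. Rpl35a, a ribosomal protein gene, was at 132% (FDR = 0.212), and like Hmgn1 it has near-identical processed copies elsewhere that could share its reads.

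**Figure D5:**
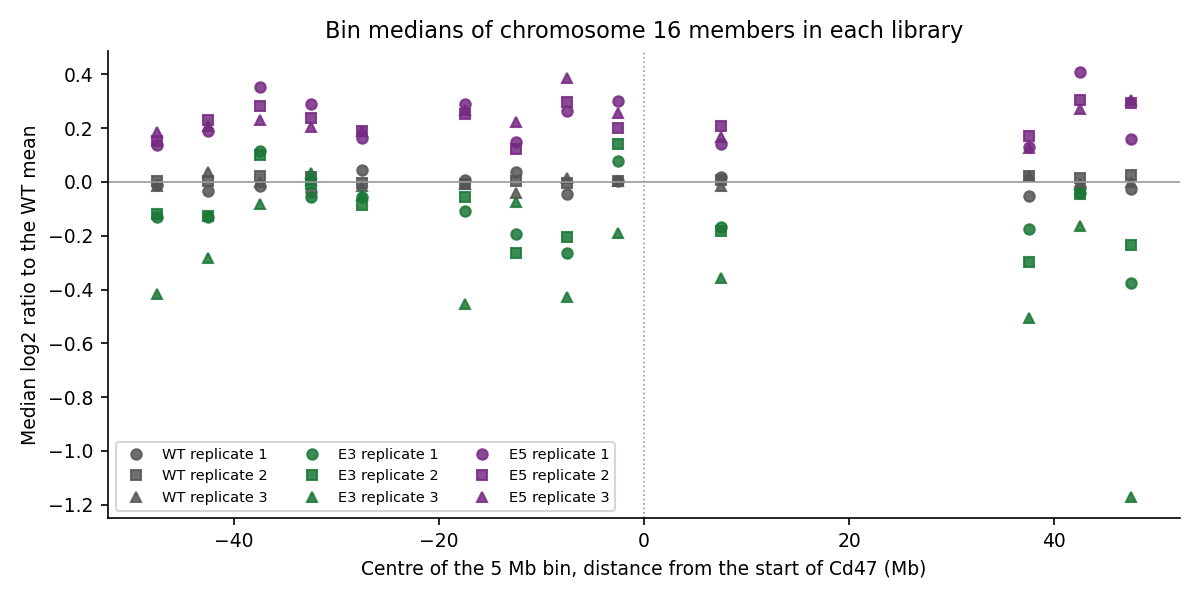
Median log2 ratio to the WT mean (log2 of CPM + 0.5) in each of the 13 bins of 5 Mb with at least 8 members (x axis, bin centre in Mb from Cd47), with 1 point per library. The 3 E5 libraries lie between 0.122 and 0.409 in every bin and above all WT libraries, and E3 replicate 3 reaches -1.17 in the last bin.

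The lower blocks of E3 were the bins from 35 to 40 Mb (median -0.29, 9 of 11 members below) and from 45 to 50 Mb (-0.42, 9 of 10). In the second, the 3 libraries read -0.376, -0.234 and -1.17, so replicate 3 weighs heavily. Without that library this bin was the only block of E3 (median -0.285, 8 of 10 below), and the bin from 35 to 40 Mb had 8 of 11 below. Closer to Cd47, the bin from -10 to -5 Mb had a median of -0.40 in E3. It was no block, because 8 of its 11 members (72.7%) were below. Its E3 libraries read -0.263, -0.205 and -0.427, and its median was -0.155 without replicate 3. The bin from 45 to 50 Mb held Ets2, an ETS family transcription factor, which fell from 47.4, 50.4 and 50.3 CPM in WT to 21.7, 17.1 and 16.3 CPM in E3 (by 1.42 on the log2 scale, SE 0.142, FDR = 7.73e-05). Brwd1 fell by 0.93 (FDR = 0.0092), from 78.9 to 81.2 CPM down to 27.1 to 51.8 CPM. Hmgn1 did not follow them, with 221.0, 269.3 and 328.7 CPM. Ets2 fell by about the same in all 3 libraries, whereas Brwd1, a long gene, was lowest in replicate 3.

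Between the clones nearly the whole chromosome differed. In 12 of the 13 bins (92.3%) E5 stood above E3 as a block, and the exception, from -5 to 0 Mb, missed by 0.003 log2 units; 14.7% of other bins were higher blocks and 4.4% lower ones. Without E3 replicate 3 it was 10 of 13, beside 11.5% and 6.6% of other bins. Dividing the chromosome into stretches of constant median (least absolute deviation with a penalty per stretch of at least 8 genes) left it whole in E5 and in E3, the latter also without replicate 3 (median -0.084). For E5 against E3 it gave a single boundary, between Tfrc at -17.19 Mb and Tnk2 at -17.16 Mb, with medians of 0.30 over 195 genes before it and 0.457 over 169 after it. That boundary rests on E3 replicate 3, for without it the chromosome stayed whole in this comparison too (median 0.376). Neighbouring genes resembled each other weakly: over adjacent members the correlation of fold changes was 0.164 in E5 (others -0.046 to 0.367) and 0.056 in E3 (others up to 0.151), where adjacent genes share library and position.

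Against this background, single genes moved far, some in 1 clone, some in both, and Abi3bp in opposite directions. Within 10 Mb of Cd47 the DEGs with a mean of at least 1 CPM were Cd47 and 6 others. Leaving Cd47 out, 5 of the 52 members there at that level were DEGs in E3 and 3 in E5. Over all genes tested the shares were 9.82% and 8.21%, so DEGs were not more frequent near Cd47. Tigit, the gene of an inhibitory receptor known from T and NK cells (-6.15 Mb), had 1.92, 2.21 and 2.95 CPM in WT, 1.86, 2.39 and 1.61 CPM in E3 and 7.73, 8.98 and 7.17 CPM in E5. It rose 3.37-fold in E5 alone (log2 fold change 1.75, FDR = 1.60e-04) and differed between the clones (FDR = 4.69e-05). Ptprc, the pan-leukocyte gene, was at most 0.042 CPM in any library.

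Qtrt2, which encodes a subunit of the tRNA queuosine-inserting enzyme (-5.94 Mb), fell in E3 to 45.5% of WT, from 63.6, 66.6 and 65.2 CPM to 30.5, 32.0 and 26.3 CPM (FDR = 4.36e-05). In E5 it read 56.9, 57.4 and 65.1 CPM and did not pass. Its genomic span overlaps Ccdc191. Boc, a Hedgehog co-receptor (-5.32 Mb), rose in E3 from 1.56, 2.17 and 1.88 CPM to 5.92, 4.21 and 3.28 CPM (1.26, FDR = 0.0027) and stayed at 1.43 to 1.89 CPM in E5. These 2 genes lie within 1 Mb of each other and moved in opposite directions in the same clone.

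After Cd47, Nfkbiz, which encodes the nuclear IκB protein IκBζ (+6.01 Mb), fell in both clones, from 33.5, 31.9 and 33.6 CPM to 17.3, 13.8 and 15.3 CPM in E3 (by 1.09, FDR = 6.25e-05) and to 22.8, 20.3 and 21.2 CPM in E5 (by 0.62, FDR = 0.002). Abi3bp, an extracellular matrix protein gene (+6.68 Mb), had 0.40, 0.19 and 0.25 CPM in WT, 5.72, 4.78 and 2.95 CPM in E3 and 0.06, 0.11 and 0.06 CPM in E5. It rose by 3.98 on the log2 scale in E3 (FDR = 2.79e-05) and fell by 1.87 in E5 (FDR = 0.032, lost in 6 of 15 alternative fits). Abi3bp thus stood on opposite sides of WT in the 2 clones.

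Tmem45a, a transmembrane protein gene further on (+7.005 Mb), fell in both. It had 4.59, 4.31 and 4.37 CPM in WT, 0.96, 0.85 and 1.06 CPM in E3 (21.6% of WT, FDR = 3.85e-04) and 0, 0.087 and 0 CPM in E5. The E5 libraries held 4 counts in all against 641 in WT, a ratio of 162 (95% interval 63.0 to 597, counting error only; FDR = 3.45e-06). Tfg, between Abi3bp and Tmem45a, was at 95.3, 94.3 and 96.5 CPM in WT, 105.6, 96.6 and 114.1 CPM in E3 and 120.7, 109.1 and 106.2 CPM in E5, with FDR = 0.280 and 0.115. A gene that passed in neither clone thus lay between 2 that did.

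The ranks that follow cover members with a mean of at least 1 CPM, no overlap with WT and a name other than a predicted (Gm) or Riken one. Among these, elsewhere on the chromosome, those that fell furthest in E3, beside Tmem45a and Cd47, were Fetub, Cebpd and Ccdc116. Fetub, a secreted cystatin family protein gene, went from 30.8, 28.6 and 25.8 CPM to 7.42, 4.86 and 9.10 CPM (by 1.99, FDR = 2.86e-04), and Cebpd, a C/EBP transcription factor gene, from 4.91, 5.62 and 4.83 CPM to 1.32, 1.42 and 2.40 CPM (by 1.58, FDR = 5.90e-04). Cebpd fell in E5 as well, to 38.6% of WT (FDR = 0.0016). Fetub was at 64.7% of WT in E5, with all its libraries below WT, but did not pass there (FDR = 0.090). Ccdc116 fell by 1.48 in E3 (FDR = 2.37e-04) and was at 109% of WT in E5. Within the same limits, the genes that rose furthest in E3, beside Abi3bp and Boc, were Sim2 (3.22-fold), Slc7a4 (2.503-fold) and Fam43a (2.47-fold), with FDR from 1.55e-04 to 0.0031. In E5 Slc7a4 was at 166% of WT (FDR = 0.071). Fam43a was at 142% there (FDR = 0.040, lost in 7 of 16 alternative fits). The E5 libraries of both genes all lay above WT.

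Within these limits, the greatest fall in E5 outside the Cd47 neighbourhood was that of Tbx1, a T-box transcription factor gene whose loss accounts for much of the heart phenotype of the human 22q11 deletion. It had 4.65, 4.23 and 4.24 CPM in WT and 4.52, 3.61 and 5.72 CPM in E3, which overlap, and 0.15, 0.35 and 0.13 CPM in E5, 4.78% of WT (FDR = 5.94e-06). P3h2, a collagen prolyl 3-hydroxylase gene, fell in E5 to 31.1% of WT, from 15.4 to 16.9 CPM down to 4.55 to 5.54 CPM (FDR = 1.41e-04), and was at 100.1% in E3. Neither gene is near Cd47: they lie at -31.22 and -23.84 Mb.

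Within these limits, the genes that rose furthest in E5, beside Tigit, were Sim2, Bod1-ps, Dop1b and Eva1c. Sim2, a bHLH-PAS transcription factor gene at +44.26 Mb, had 0.78, 0.84 and 1.01 CPM in WT, 2.76, 3.25 and 2.46 CPM in E3 and 3.68, 4.598 and 4.59 CPM in E5. It rose in both clones, 3.22-fold and 4.88-fold (FDR = 1.55e-04 and 1.54e-05). Dop1b, a protein of endosome to Golgi traffic at +43.89 Mb, rose in E5 alone, from 16.2, 15.8 and 15.3 CPM to 50.8, 54.7 and 54.6 CPM (3.38-fold, FDR = 6.38e-05), beside 17.3, 15.2 and 9.74 CPM in E3. Eva1c rose 2.78-fold and the processed pseudogene Bod1-ps 4.07-fold, the latter with reads that could belong to its parent gene.

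Dop1b and Sim2 are neighbours in the bin with the highest E5 median, and their surroundings, looked up after these values were seen, showed a mixed picture. Cbr3, a carbonyl reductase gene just before Dop1b, rose in E5 from 3.46 to 4.02 CPM up to 7.88 to 8.98 CPM (log2 fold change 1.21, FDR = 0.0019). Chaf1b, a chromatin assembly factor gene between Dop1b and Sim2, rose by 0.40 (FDR = 0.0242). Morc3, which lies directly after Dop1b, was at 0.20 (FDR = 0.296), and Cbr1, directly before Cbr3, at 0.17 (FDR = 0.461). Genes with a change of over 2-fold therefore alternated with genes near the level of the rest of the chromosome.

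Members with low or no counts in 1 line showed the largest contrasts. App, the amyloid precursor gene, holds 1 of the 4-mismatch guide sites in an intron and had 28, 27 and 22 counts in WT and 0 in each of the 6 KO libraries. Its level was thus at least 25.3-fold lower in E3 and at least 26.0-fold lower in E5, with 3 counts over each group allowed and counting error only. At 0.46 to 0.57 CPM in WT it was barely expressed to begin with. Itsn1, an endocytic scaffold gene that also holds such a site, stood 0.12 above WT in E3 and 0.36 above it in E5 on the log2 scale and passed in neither clone. Whether any of these sites was cut was not tested.

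Epha3, an ephrin receptor gene, had no count in WT or E5 and 0.64, 0.70 and 0.31 CPM in E3, at least 26.7-fold above WT. Hunk, a serine/threonine kinase gene, had 209 counts in E3 (1.64, 1.31 and 1.43 CPM) against 3 in WT and 2 in E5, a ratio of 70.6 to WT (95% interval 23.8 to 345, counting error only). Igsf5, one of the untested members, had 12, 10 and 5 counts in WT, 10, 9 and 7 in E5 and 0 in the 3 E3 libraries. Jam2, a junctional adhesion molecule gene, rose in both clones from 0.10 to 0.15 CPM up to 0.31 to 0.74 CPM in E3 and 0.57 to 0.69 CPM in E5 (FDR = 0.002 in both). App, Epha3, Hunk and Dppa4 are among the 7 members that reach 10 counts in 1 line only, so their differences follow from the counting rule and are given as a description.

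Of 24 genes whose human counterparts lie in 22q11, 7 rose in E5 and 1 fell (Tbx1), and 4 rose in E3, with medians of 0.28 and -0.003. Over all genes 8.96% rose and 11.7% fell in E5, and 15.7% rose and 14.7% fell in E3. Without E3 replicate 3, 19 of the 24 rose and 1 fell in E5, and 5 rose and 3 fell in E3. In that fit 20.8% of all genes rose and 21.2% fell in E5, and 21.8% rose and 21.5% fell in E3. Arvcf, a catenin of the p120 family, rose in both clones, from 4.69 to 5.23 CPM up to 9.59 to 10.6 CPM in E3 and 8.73 to 9.50 CPM in E5 (FDR = 1.12e-04 and 3.56e-04). Of 63 genes whose counterparts lie on human chromosome 21, 15 rose and 2 fell in E5 and 7 rose and 20 fell in E3. Their medians were 0.26 and -0.15, and the shares over all genes are those given above for all 9 libraries. App and Hunk, which reach 10 counts in 1 line only, are among the 63. Of the other 61, E5 had 15 that rose and 1 that fell, and E3 had 6 that rose and 19 that fell. Without E3 replicate 3, 35 of 64 rose and 3 fell in E5, and 12 rose and 28 fell in E3. Gart, a purine synthesis enzyme in the chromosome 21 group, fell by 0.61 in E3 (FDR = 0.0042) and was at 119% of WT in E5 (FDR = 0.179). The medians of both groups in E5 are close to that of the chromosome.

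Of the 4 receptor genes of the interferon and interleukin-10 cluster, 1 rose in E5 (8.96% of all genes did) and 0 changed in E3. It was Ifngr2, which encodes a chain of the interferon-γ receptor, at 24.5 CPM on the mean in WT and 39.8 CPM in E5 (log2 fold change 0.70, FDR = 0.0013), while Ifnar1, Ifnar2 and Il10rb lay between -0.05 and 0.26 in E5. Of 3 interferon-induced PARP family and associated genes, 2 rose in each clone, beside 15.7% of all genes in E3 and 8.96% in E5: Parp9 in both (0.64 and 0.65), Parp14 in E3 (0.86) and Dtx3l in E5 (0.66). Of 4 immune surface genes near Cd47, Tigit in E5 was the only one to pass with all 9 libraries, beside 8.96% of all genes that rose there. In that fit Cd80, Nectin3 and Alcam did not pass. Without E3 replicate 3, 2 of the 4 rose in E5 and 1 rose in E3, with 0 falling in either. With all 9 libraries Parp14 stood at -0.61 in E5 without passing (FDR = 0.098). Without E3 replicate 3, 2 of the 4 receptor genes rose in E5 and 1 fell in E3. Of the 3 PARP family and associated genes, 3 then rose in E3, and 2 rose and 1 fell in E5. Without that library 20.8% of all genes rose and 21.2% fell in E5, and 21.8% rose and 21.5% fell in E3.

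Among 7 adhesion and guidance receptor genes 5 rose in E3 (Epha3, Jam2, Boc, Cxadr and Ephb3) and 2 in E5 (Jam2 and Ephb3), with 0 falling in either, beside 15.7% and 8.96% of all genes that rose. The rise of Epha3 follows from the counting rule. Without Epha3 4 of 6 rose in E3, and the medians of the 6 were 0.87 in E3 and 0.035 in E5, beside -0.113 and 0.247 for the chromosome. Without E3 replicate 3, 5 of the 7 rose in E3 and 3 in E5, with 0 falling, beside 21.8% and 20.8% of all genes that rose. Among 18 transcription regulators 1 rose and 7 fell in E3, and 2 rose and 2 fell in E5, with medians of -0.24 and 0.11. Over all genes 15.7% rose and 14.7% fell in E3, and 8.96% rose and 11.7% fell in E5. Without E3 replicate 3, 1 rose and 7 fell again in E3, and 7 rose and 4 fell in E5. In that fit 21.8% of all genes rose and 21.5% fell in E3, and 20.8% rose and 21.2% fell in E5. Besides Nfkbiz, Ets2 and Brwd1, the regulators that fell in E3 with all 9 libraries were Etv5, an ETS factor gene (by 1.07), Runx1 (by 0.78), Nrip1, a nuclear receptor corepressor gene (by 1.02), and Zbtb21 (by 0.78). E5 stood at 0.04, 0.14, -0.26 and 0.03 for these 4, and none passed. Their FDR in E3 ran from 5.16e-04 to 0.0123.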

How the data were processed

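RNA was measured in 9 libraries, 3 each of LLC WT, CD47 KO clone E3 and CD47 KO clone E5, by paired-end sequencing of poly(A)-selected, directional libraries. The authors deposited raw counts per gene. FastQC, Trimmomatic, STAR and GRCm39 are named in the submitters' processing notes, while which tool counted reads, with which annotation and whether by strand, is not given in the sources used here. Totals were 44257404 to 55095219 counts per library, and intervals and floors cover counting error only.

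Counts were fitted with edgeR 4.0.16 (R 4.3.3) after filterByExpr and TMM scaling, by the quasi-likelihood F test with line as the only term, two-sided, with Benjamini-Hochberg adjustment over 14593 genes. DESeq2 1.42.0 was an alternative. The SE is the log2 fold change divided by the square root of F. CPM used TMM-scaled library sizes, and ratios per library used log2(CPM + 0.5). Medians and bins are descriptions and carry no p. A fold against a group at 0 was computed against 3 counts over its libraries. Tested on simulated counts for E3 against WT over 14593 genes, the fit recovered 71 of 100 genes changed 2-fold and 11 of 100 changed 1.5-fold, so small shifts of single genes were mostly below its reach.

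Annotation and target sites came from GRCm39 with GENCODE vM39, which holds 446 of the 448 gene IDs. Genes were named by rule: Cd47, the 6 members nearest to it on each side, DEGs within 10 Mb, the 5 most positive and 5 most negative DEGs of each clone with a mean of at least 1 CPM, no overlap with WT and a name other than a predicted (Gm) or Riken one, the 3 most abundant members of each block, and up to 3 DEGs per list; 1 gene the rule names is not reported here. Further members named as examples of a list or a stretch were chosen after their values were seen. The members and lists were chosen with earlier results of these data known.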

Additional observations from a re-analysis of the deposited data

Results flagged for a closer look

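For 18 of the named members the fold changes of the clones against WT differed, by the test of E5 against E3 (edgeR's quasi-likelihood test over all genes, FDR under 0.05, absolute log2 difference above 1). Those higher in E5 than in E3 were Tigit (log2 difference 2.03), Eva1c (2.03), Dop1b (1.92), Ets2 (1.71), Ccdc116 (1.60), Bod1-ps (1.42), Fetub (1.37), Qtrt2 (1.01) and Slc5a3 (1.01). Those lower in E5 were Cd47 (-1.36), Boc (-1.38), P3h2 (-1.68), Tbx1 (-4.47), Tmem45a (-5.0) and Abi3bp (-5.85). The other 3, Dppa4 (-4.81), Hunk (-6.49) and Epha3 (-7.74), reach 10 counts in 1 line only, so that they had to differ between lines, and their values are a description. The fitted values of Dppa4, Tmem45a, Hunk and Epha3 depend on the prior count, because at least 1 line held few or no counts. By counts, E5 was at least 27.0-fold below E3 for Epha3 and at least 3.42-fold for Dppa4, and the ratio of E3 to E5 was 107 for Hunk (95% interval 29.3 to 891) and 34.9 for Tmem45a (13.3 to 130), counting error only.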

How the results depend on the processing

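The 18 results recomputed were counts of members called and of DEGs, Cd47, medians and counts of block bins. Cd47 and the medians kept their sign under every alternative tried, whereas the counts have no sign to change. Beside the share over all genes, the members higher in E3 changed sides with no filter on low counts. They were 10% there, against 8.34% of 26158 genes, and 11.5% against 15.7% in the main fit. For E5 against E3 the alternatives were chosen after seeing the data. There the medians ran from 0.364 to 0.404 and blocks from 9 to 12. The falls of Cd47 stayed between -2.12 and -1.92 (E3) and between -3.44 and -3.32 (E5). When every library had to hold 10 counts or more, members with few counts were no longer tested, and there were 26 DEGs of E3, 16 DEGs of E5, 7 members lower in E5 than WT and 18 lower in E5 than E3. With only the 2 groups compared, 229 members were higher and 32 lower in E5. Leaving out 1 library at a time gave 32 to 79 members higher in E3, 27 to 216 higher in E5 and 13 to 28 lower in E5, the highest each without E3 replicate 3. The median of E5 over chromosome 16 was 0.2356 with no filter on low counts and 0.2289 (without E5 replicate 1) to 0.253 (without E3 replicate 3) with 1 library left out, and within 2 Mb of Cd47 it was 0.2797. Blocks of E3 numbered 1 without E3 replicate 3 and 1 without WT replicate 2, 4 of 24 bins of 2.5 Mb, 0 of 8 bins of 10 Mb, and 1 with a shift of at least 0.4, where E5 had 0. Except where a value follows from fewer libraries or genes, the cause was not tested. Replicate numbers did not pair the libraries: same-numbered libraries of different lines correlated at -0.254 to 0.099 in their deviations from the line means (9 pairs), others at -0.265 to 0.261. With the replicate block 38 members were higher and 81 lower in E3, 49 higher and 14 lower in E5, and 147 higher and 25 lower in E5 than in E3. The block gave 43 and 30 DEGs, 3 and 6 blocks, and Cd47 at -2.04 and -3.39.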
